A study of Homo sapiens with 2 samples.

Results

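The cyclic nucleotide phosphodiesterase genes PDE3A, PDE4D, PDE7B and PDE8B and the genes for natriuretic peptide receptors, NPR1 and NPR3, were examined in H1299, an established cell line from human non-small cell lung cancer. They were the 6 genes of these families among the 243 transcript clusters of the deposited table, where a transcript cluster is the set of probes assigned to 1 gene or transcript group. Of the 243 clusters, 220 were annotated with 1 gene. The cells received a miR-138 mimic, a synthetic duplex that supplies the microRNA, or a negative control (NC) mimic, both by lipofection, and RNA was taken at 48 h. There was 1 whole-transcript array per mimic, and the labels describe no further cultures, no arm of miR-138 and no sequence of the NC mimic. The values are log2 signals as deposited, and each difference is the value with miR-138 minus the value with NC.

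The table holds only clusters whose arrays differ by at least 2-fold (1 in log2), in either direction. The genes described here were chosen from that table by this same difference, and their differences were known when they were chosen. Their direction is therefore a description of 2 arrays, with no test, no replicate check and no error. Deposited values have 2 decimals, so a difference is exact to 0.01 by rounding alone.

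Cyclic AMP and cyclic GMP are second messengers made by adenylyl and guanylyl cyclases and removed by phosphodiesterases, which cut the cyclic phosphate bond. They act through protein kinases A and G, through exchange factors and ion channels, and in the nucleus through CREB, a transcription factor that binds the cyclic AMP response element. Natriuretic peptides bind NPR1, a membrane receptor that is itself a guanylyl cyclase, and NPR3, which has no cyclase domain and takes the peptides into the cell for degradation. In the airways, phosphodiesterases of families 3 and 4 are known for their action in smooth muscle and inflammatory cells.

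The mature sequences of miR-138 are shown because the mimic carries one of them and the labels do not name the arm. They are RefSeq sequences (build GRCh38.p14, plus strand), written 5′ to 3′, with the seed (bases 2 to 8) in capitals. Both human miR-138 genes, MIR138-1 on chromosome 3 and MIR138-2 on chromosome 16, encode the same 5p arm of 23 bases, and their 3p arms of 22 bases differ in the seed.
hsa-miR-138-5p: aGCUGGUGuugugaaucaggccg
hsa-miR-138-1-3p: gCUACUUCacaacaccagggcc
hsa-miR-138-2-3p: gCUAUUUCacgacaccaggguu
The cluster of MIR138-1 read 14.07 on the miR-138 array and 6.13 on the NC array, the direction that the labels give. Sites for these seeds in the transcripts of the 6 genes were not analysed here.

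Promoter stretches of 4 genes are shown next because they hold the motifs counted below. They come from RefSeq windows (build GRCh38.p14) that run from 250 bases before an annotated start of transcription through its first 50 bases. The first is the whole PDE7B window, chr6:135851451-135851750 on the plus strand, with the cyclic AMP response element in capitals. The second is the whole NPR1 window, chr1:153678438-153678737 on the plus strand, with GC boxes, the letters bound by Sp1-type factors, in capitals. The others are stretches of 45 bases around the shorter CRE core, in capitals, from the second NPR3 window (chr5:32710608-32710652, plus strand) and the fourth PDE4D window (chr5:59587658-59587702, minus strand).
PDE7B: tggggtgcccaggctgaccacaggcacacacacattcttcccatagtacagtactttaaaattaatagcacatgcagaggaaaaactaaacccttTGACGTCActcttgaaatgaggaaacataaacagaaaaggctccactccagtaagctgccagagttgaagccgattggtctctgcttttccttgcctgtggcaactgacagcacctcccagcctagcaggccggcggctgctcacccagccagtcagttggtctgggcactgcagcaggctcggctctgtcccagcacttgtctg
NPR1: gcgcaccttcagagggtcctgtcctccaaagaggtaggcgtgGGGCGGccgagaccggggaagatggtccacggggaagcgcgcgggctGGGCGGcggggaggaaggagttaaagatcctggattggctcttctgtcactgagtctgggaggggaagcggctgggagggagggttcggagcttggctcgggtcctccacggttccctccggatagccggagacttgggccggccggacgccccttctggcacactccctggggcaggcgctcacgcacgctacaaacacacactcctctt
NPR3: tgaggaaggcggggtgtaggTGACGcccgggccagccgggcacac
PDE4D: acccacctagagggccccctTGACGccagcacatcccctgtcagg

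All 6 genes were lower on the miR-138 array, with differences from -1.59 for NPR3 to -1.14 for PDE7B and a median of -1.36. Of all 243 clusters, 139 (57.2%) were lower, and since the genes were taken from that table nothing is read from their shared direction. Less RNA per cell and fewer cells that hold it cannot be told apart in such bulk samples. The median over all lower clusters was -1.24. NPR3, NPR1, PDE8B and PDE3A were more negative than that median, and PDE4D and PDE7B less.

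**Figure D1:**
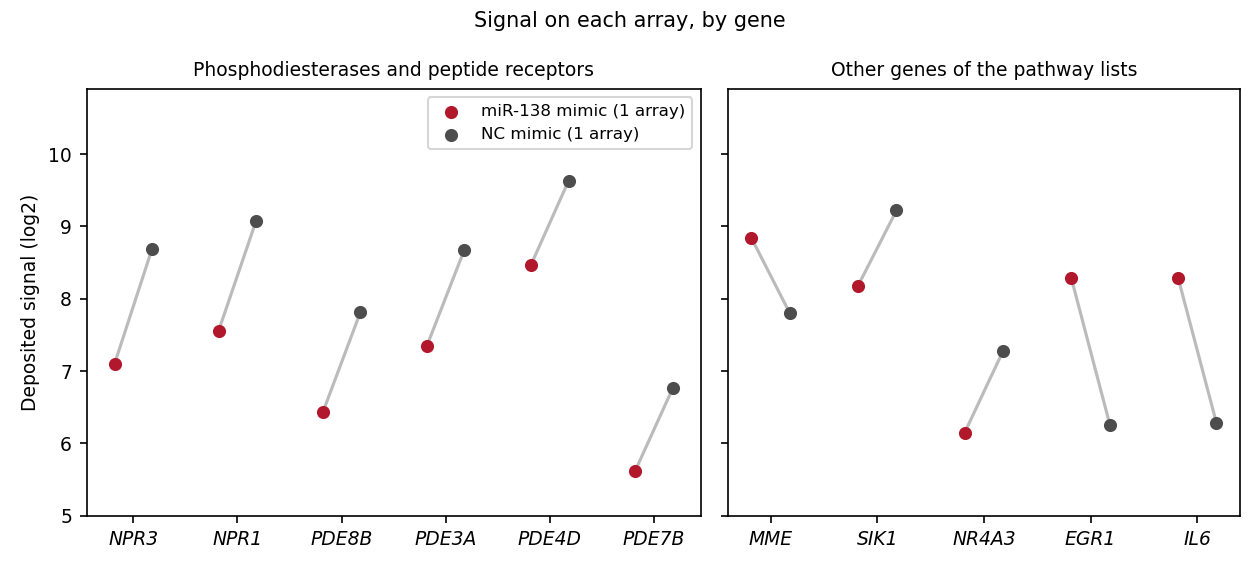
Deposited log2 signal (vertical axis) on the miR-138 array (red, left of each pair) and the NC array (grey, right), 1 array each and no error bars. The 6 phosphodiesterase and receptor genes (left panel), chosen by this same difference, are all lower on the miR-138 array. The other listed pathway genes (right panel) lie on both sides, with MME, EGR1 and IL6 higher.

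Both receptor genes had larger negative differences than the phosphodiesterase genes. NPR3, the clearance receptor, read 7.10 on the miR-138 array and 8.69 on the NC array, and so differed by -1.59. On the linear scale these are signals of 137 and 413, so that 33.2% of the NC signal was left with miR-138. NPR1, the receptor for atrial and B-type natriuretic peptide that makes cyclic GMP, read 7.56 on the miR-138 array and 9.08 on the NC array, and so differed by -1.52. Its signal with miR-138 was 34.9% of that with the NC mimic. The receptors differed from each other by 0.07 in their differences, which is more than rounding can give but cannot be set against any replicate spread.

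The phosphodiesterase genes are given in order of their differences. PDE8B, a high-affinity enzyme specific for cyclic AMP, read 6.43 on the miR-138 array and 7.81 on the NC array, and so differed by -1.38. PDE3A, which hydrolyses cyclic AMP and is inhibited by cyclic GMP, read 7.35 on the miR-138 array and 8.68 on the NC array, and so differed by -1.33. The signals left with miR-138 were 38.4% of the NC signal for PDE8B and 39.8% for PDE3A. Both genes kept a larger share of the NC signal than either receptor gene.

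PDE4D belongs to the cyclic AMP-specific family targeted by rolipram. It read 8.47 on the miR-138 array and 9.63 on the NC array, and so differed by -1.16, which left 44.8% of the NC signal. PDE7B, another enzyme specific for cyclic AMP, read 5.62 on the miR-138 array and 6.76 on the NC array, and so differed by -1.14, which left 45.4%. The gap of 0.02 between PDE4D and PDE7B is no larger than rounding alone can give, the 1 pair of 15 among the 6 genes for which this holds. These were also the differences closest to the limit of the table, by 0.16 for PDE4D and 0.14 for PDE7B. Just inside that limit, HENMT1, TGFBI and HMG20B were each at -1.0, and clusters with smaller differences were not analysed here.

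All 6 differences moved with the scaling, and those of PDE4D and PDE7B came within the limit of 1 under an alternative. Quantile normalization over the table gave -0.75 for PDE4D and -1.21 for PDE7B, which reversed their order and set them further apart. With array medians subtracted, PDE4D was at -1.1 and PDE7B at -1.08, so that order and closeness were kept. Both scalings used only clusters already filtered by their difference, so they cannot show how the whole arrays should be scaled to each other. Adding 16 to the linear signals before taking logs gave -1.13 for PDE4D and -0.93 for PDE7B, the same order with a wider gap. PDE7B was also the only one of the 6 in the lowest 25% of clusters by mean level (log2 6.57 or less). Brightness depends on the probes, so a gap in level between genes is not read as a gap in the amount of RNA.

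**Figure D2:**
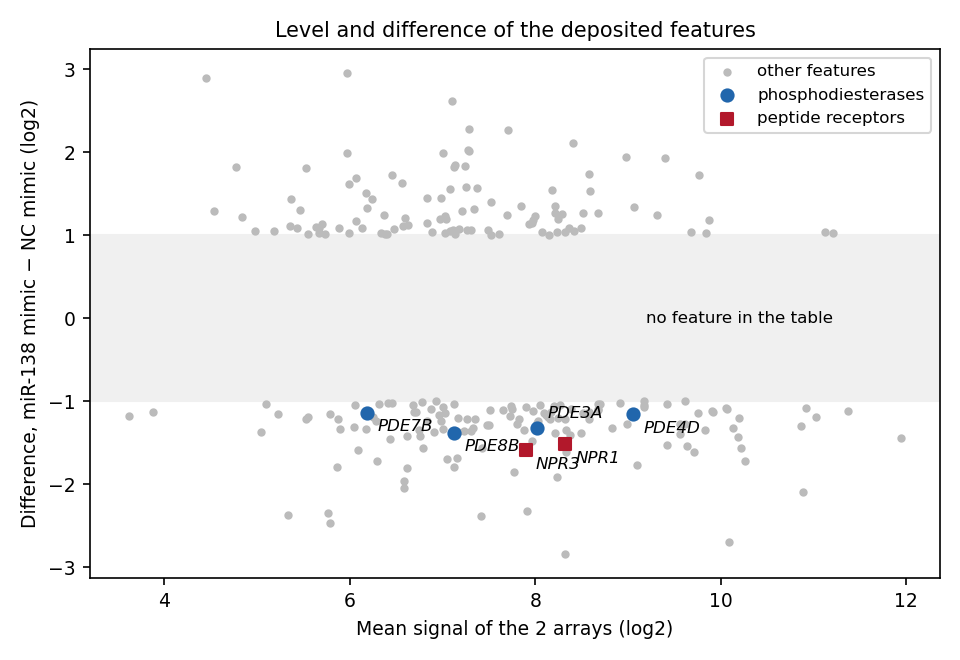
Difference between the arrays (vertical axis, log2, miR-138 mimic minus NC mimic) against the mean signal of the 2 arrays (horizontal axis, log2) for the deposited clusters. The MIR138-1 cluster, at 7.94, lies beyond the axis and is not drawn. Blue circles are phosphodiesterase genes and red squares receptor genes, all between -1.59 and -1.14, and the shaded band between -1 and 1 holds no cluster.

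Stricter limits left fewer of the genes. At a difference of at least 1.2 in log2, 4 of the 6 genes were counted as lower, NPR3, NPR1, PDE8B and PDE3A, where 33.3% of the 243 clusters passed. At 1.5 there were 2, NPR3 and NPR1, and 12.3% of the clusters passed. These limits use the values by which the genes were chosen and give no support to a difference between the families.

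Among the 139 lower clusters, ranked from the most negative, NPR3 stood at rank 23 (tied with another cluster) and NPR1 at rank 30. PDE8B stood at rank 39 in a tie of 3, and PDE3A at rank 54 in a tie of 2. PDE4D at rank 90 and PDE7B at rank 93 lay in the later part of the order, where clusters are packed close to the limit. The most negative difference in the table was -2.84.

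**Figure D3:**
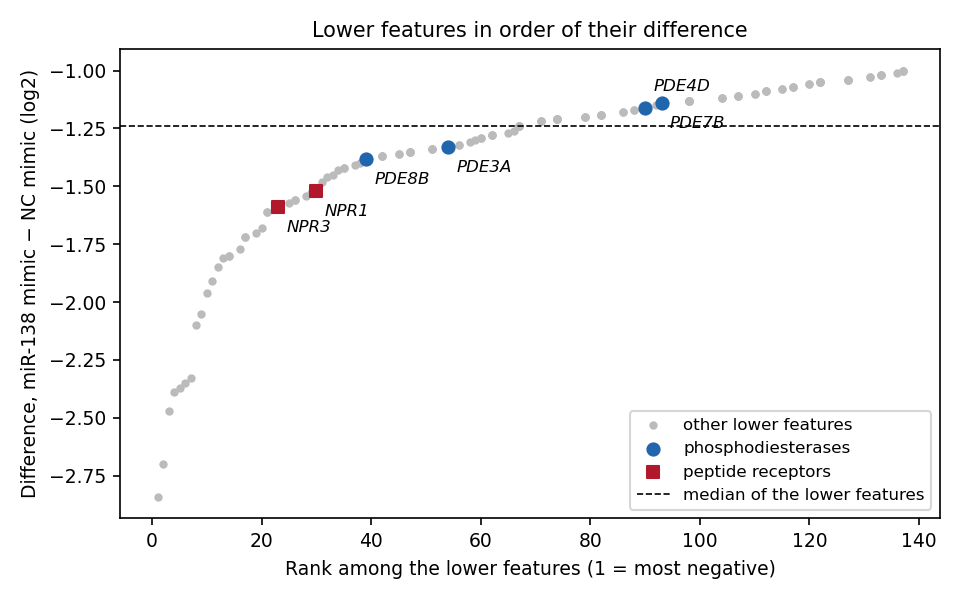
The 139 lower clusters in order of their difference (vertical axis, log2, miR-138 mimic minus NC mimic; horizontal axis, rank with 1 the most negative and ties sharing a rank). The dashed line is their median, -1.24, and it lies between PDE3A at rank 54 and PDE4D at rank 90.

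NPR3, PDE8B and PDE4D, 3 of the 6 genes, are coded to chromosome 5 in their cluster identifiers, with NPR1 on chromosome 1, PDE7B on chromosome 6 and PDE3A on chromosome 12. Of the 23 clusters coded to chromosome 5, 13 were lower and 10 higher. That is 56.5% lower, close to the 57.2% of the whole table. Genes of the same chromosome went the other way, among them EGR1 at 2.02.

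A fixed set of 9 lists with 183 distinct symbols, the 6 genes among them, covered the pathway from phosphodiesterases, peptides, cyclases and receptors to kinases, transcription factors and responsive genes. In all, 11 of these genes were in the table, and 5 of them were other than the 6 described above. Of these 5, 3 were higher and 2 lower, where 57.2% of all 243 clusters were lower. Their median was 1.04, against -1.05 over all clusters. Since no cluster lies between -1 and 1, the sign of a median over 5 genes can turn on 1 gene. The other 20 phosphodiesterase symbols were not analysed here. No listed cyclase, nitric oxide synthase, protein kinase A or G subunit, anchor protein, exchange factor, cyclic nucleotide channel, G protein, G protein-coupled receptor or phosphodiesterase partner was in the table, and for these genes a smaller change than the table's limit is not measured here.

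On the side of the peptides, the list of natriuretic peptides, receptors and processing enzymes had 3 of its 10 members in the table. Besides both receptors it held MME (neprilysin), a membrane protease that degrades natriuretic peptides. MME read 8.84 on the miR-138 array and 7.80 on the NC array, and so differed by 1.04. The protease was thus higher on the array on which both receptors were lower.

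On the nuclear side, the list of CREB family factors and coactivators had 1 of 15 members in the table. This was SIK1, a kinase that is induced by cyclic AMP and keeps CREB coactivators out of the nucleus. SIK1 read 8.18 on the miR-138 array and 9.22 on the NC array, and so differed by -1.04. That is close to the limit of the table, and subtracting array medians moves every lower difference towards that limit by 0.06. RefSeq lists a second gene under the synonym SIK1B, and the signals of both copies could not be told apart.

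The list of genes responsive to cyclic AMP and CREB had 4 of 25 members in the table, 2 higher and 2 lower. Their median of 0.49 falls midway between a lower and a higher gene, and no cluster of the table has such a value. The immediate early factor EGR1 read 8.28 on the miR-138 array and 6.26 on the NC array. The cytokine IL6 read 8.29 on the miR-138 array and 6.28 on the NC array, and so differed by 2.01. The nuclear receptor NR4A3 lay on the other side, at 6.15 on the miR-138 array and 7.28 on the NC array, and so differed by -1.13. SIK1 was lower as well, at -1.04. Genes of this list respond to several pathways, and they did not share a direction.

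The labelled cell type could not be checked from the table, since none of 22 listed lung epithelial and lung cancer markers was in it. Of 20 markers of smooth muscle, endothelium, fibroblasts and leukocytes, 1 was in the table. This was the fibroblast proteoglycan DCN, at 4.55 on the miR-138 array and 7.02 on the NC array. Its part in the differences of the 6 genes was not tested.

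For each of the 6 genes, the 3 nearest clusters were found by straight-line distance over its log2 values on the 2 arrays. Only clusters annotated with 1 gene were searched, so other clusters can lie nearer than those named. The 18 neighbours, 17 of them distinct, lay within 0.064 to 0.25 of their gene and none was one of the 6 genes. The nearest to NPR3 was TRIM29 (-1.48), followed by DNAJC15 and AQP3. The nearest to NPR1 was the mechanosensitive channel PIEZO2 (-1.61), followed by GSTT1 and BAG1. PDE8B had the metalloprotease ADAMTS1 nearest (-1.37), then CTPS2 and MTUS1, and PDE3A had CCN5 (-1.24), then TRIM29 and COL12A1. PDE4D lay nearest to the adhesion molecule MCAM (-1.28), then KYNU and MGST3. PDE7B lay nearest to SPINK13 (-1.19), then ADAMTS5 and PTPRG-AS1. With 2 arrays such nearness is one of level and difference only.

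The genes differ in how many transcripts a single cluster value stands for. RefSeq holds 27 curated messenger RNAs for PDE8B, 18 for PDE4D, 6 for NPR3 and 5 for PDE3A, against 1 each for NPR1 and PDE7B. The value of a cluster does not say which of them differed. RefSeq also names an antisense long non-coding RNA gene for PDE3A, PDE4D and PDE7B (PDE3A-AS1, PDE4D-AS1 and PDE7B-AS1). None of these was in the table, and whether the probes of the sense genes read them was not tested.

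The promoter table held 17 windows for the 6 genes, 8 of them for PDE4D, 4 for PDE8B, 2 for NPR3 and 1 each for NPR1, PDE3A and PDE7B. The single PDE3A window and all 8 PDE4D windows lie at starts inside the gene rather than at the outermost end that RefSeq gives. The windows ranged from 35.0% G and C for PDE3A to 77.3% for the fourth PDE8B window, with a median of 52.3%, against 58.7% over all 35116 windows. Starts of one gene differed widely, from 36.7% to 68.3% in PDE4D.

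The motifs searched on both strands were the cyclic AMP response element TGACGTCA, its core TGACG, which also lies within the full element, the GC box GGGCGG and the CCAAT box CCAAT. The full element was in 1 of the 17 windows, that of PDE7B printed above, where it begins 155 bases before the start. It was in 1.85% of all windows. The core was in 3 windows, of PDE7B, NPR3 and PDE4D, and in 24.6% of all. In NPR3 it begins 21 bases and in PDE4D 57 bases before the start.

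The GC box was in 3 windows, of NPR1, PDE4D and PDE8B, with 2 matches in each, and in 45.0% of all windows. The CCAAT box was in 6 windows of 5 genes, all but PDE8B, and in 34.6% of all. No motif was common to the 6 genes. A match is a string of letters and does not show binding.

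**Figure D4:**
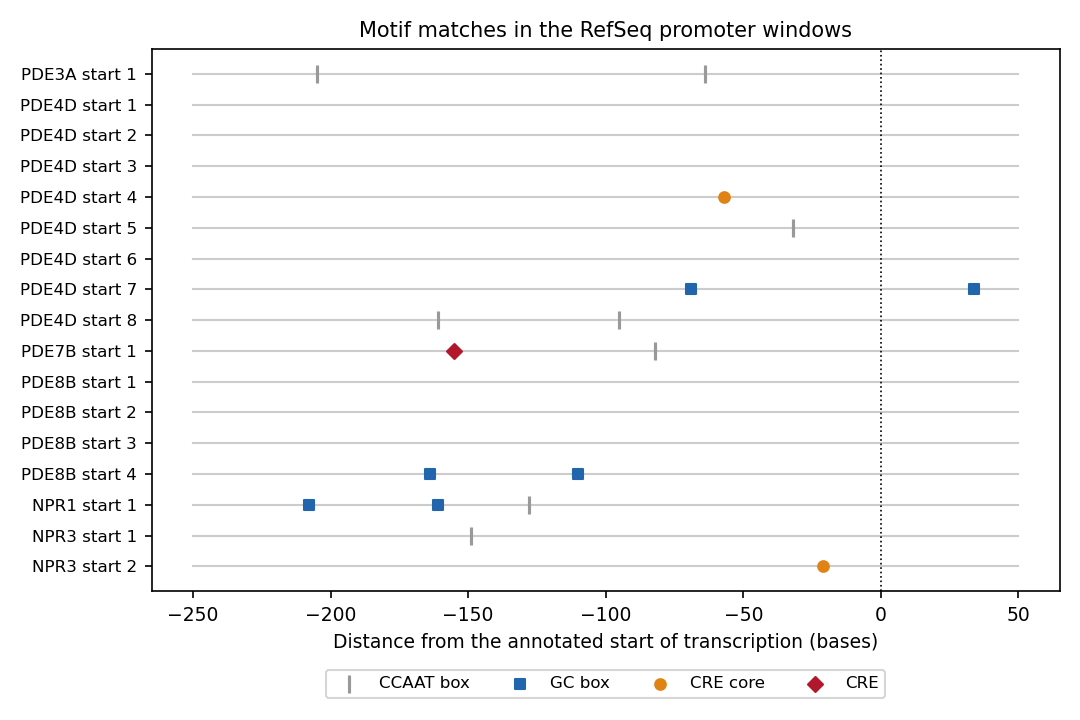
Motif matches (markers, placed at the first base of the match) in the 17 RefSeq promoter windows of the 6 genes, 1 line per annotated start, numbered in the direction of transcription. The horizontal axis is the distance from the start in bases, from 250 before to 50 after it. The full cyclic AMP response element appears once, 155 bases before the PDE7B start, and a core inside it is not drawn separately.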

How the data were processed

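RNA from H1299 cells transfected with a miR-138 mimic or an NC mimic was measured on 1 whole-transcript Affymetrix array each. Per the submitters' processing notes, Affymetrix Expression Console was used. Its version and settings, and the filter that made the table, are not given in these sources. The deposited values, from 3.0 to 14.07, are taken as log2 signals, since read as natural logarithms the highest would exceed what a scanner records. Whether and how the authors normalized the arrays to each other is not known. The number of arrays limits the precision.

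Clusters were named by the platform's annotation, and all 6 genes matched RefSeq by symbol (5 also carried a gene identifier). Differences, counts, ranks and motif matches were computed with Python 3.11.15, NumPy 2.4.6, pandas 2.3.3 and Matplotlib 3.10.9, and checked on simulated data. No test was made. The 6 genes and all lists were chosen with earlier results of these data known. Named were the 6 genes, every listed gene in the table and the 3 nearest clusters of each gene. Others are said to be chosen after their values were seen, or mark the limit of the table.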

Additional observations from a re-analysis of the deposited data

How the results depend on the processing

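All 6 genes stayed lower with miR-138 under centring, quantile normalization and an offset of 16, but the table holds no difference under 1, so small scaling changes could turn no sign. Subtracting each array's median over the 243 clusters moved every difference by 0.06 and gave -1.53 for NPR3, -1.46 for NPR1, -1.32 for PDE8B, -1.27 for PDE3A, -1.1 for PDE4D and -1.08 for PDE7B. Quantile normalization over the table gave -1.37 for NPR3, -1.31 for NPR1, -1.26 for PDE8B, -1.09 for PDE3A, -0.75 for PDE4D and -1.21 for PDE7B. With log2(signal + 16) the values were -1.49 for NPR3, -1.44 for NPR1, -1.23 for PDE8B, -1.25 for PDE3A, -1.13 for PDE4D and -0.93 for PDE7B. Of the 6 genes, 4 were lower by at least 1.2 and 2 by at least 1.5, 5 lay outside the lowest 25% of levels, and all 6 passed the limit of 1 after centring. In the whole table, 121 clusters were lower by at least 1 after centring. Without centring, 113 of the 182 clusters outside the lowest 25% of levels were lower, and 129 of the 220 clusters with 1 gene. Counting clusters with several genes changed no pathway list. No paired analysis was possible because each mimic has 1 array. For the same reason no replicate could be left out.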

Other observations

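Some G protein-coupled receptors and calcium signalling genes outside the lists were in the table. They were chosen with their values in view, and no test was made. Of 5 such receptors, 4 were lower and 1 was higher with the miR-138 mimic, where 57.2% of all 243 clusters were lower. GLP2R, a receptor coupled to adenylyl cyclase, read 7.52 on the miR-138 array and 8.90 on the NC array, and so differed by -1.38. ADGRG2, an adhesion receptor, differed by -1.36, the opsin OPN3 by -1.38 and LGR4, a receptor for R-spondins, by -1.21. GPR19 was higher, by 1.01. A cluster shared by the olfactory receptor OR2W3 and TRIM58, higher by 1.08, was not counted among the 5, so the count depends on the choice. ITPR1, the calcium release channel of the endoplasmic reticulum and a substrate of protein kinase A, differed by -1.24. The phospholipase PLCB4 was higher, by 1.2 in log2. SCGB3A2, a secretory protein of airway epithelium that was not on the marker list, read 5.21 on the miR-138 array and 6.37 on the NC array.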
